A study of Mus musculus with 7 samples.

Results

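Glycolysis and hypoxia response genes were followed through sorted lung regulatory T (Treg) cells as 35 named genes of the 19736 gene symbols in the deposited tables. The genes were chosen by name: 4 glucose and lactate transporters, 16 glycolytic enzymes, 2 PFKFB regulators, 4 genes for alpha subunits of hypoxia-inducible factor (HIF) and for HIF prolyl hydroxylases, and 9 other HIF targets. All 35 were found under their symbols, and all 35 passed the filter on low values, which asked for 10 normalised counts or more in 3 or more libraries.

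The CCR6+ group held 3 libraries and the CCR6- group 4, and the study names the CCR6- libraries as controls. Both groups were Foxp3EGFP+ cells, so each carried the EGFP reporter of Foxp3, the transcription factor that defines Treg cells, and both carried Il4raR576, a variant allele of the receptor chain for interleukin 4. The cells of both groups were sorted by flow cytometry from total lung digests of female mice aged 5 to 7 weeks, which had been sensitised to ovalbumin (OVA) with 100 µg in the peritoneum, boosted after 2 weeks, exposed to 1% OVA aerosol for 30 min on each of 3 days from day 29 and killed on day 32. Mice without the allele and unchallenged mice are not analysed here, so no value below bears on the allele or on the challenge. Whether each library came from its own mice is not stated in the labels, so the p-values measure a spread that may be technical.

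Glycolysis splits glucose into pyruvate in the cytosol. Hexokinase traps the sugar, phosphofructokinase commits it, and lactate dehydrogenase turns pyruvate into lactate while it regenerates NAD+. PFKFB enzymes set the level of fructose 2,6-bisphosphate, an activator of phosphofructokinase. HIF is a dimer of an alpha subunit with ARNT. Prolyl hydroxylases mark the alpha subunit for destruction when oxygen is present, and when it persists the dimer binds a short DNA core and induces most glycolytic genes along with genes for mitophagy, angiogenesis and collagen folding. Activated and TH17-type T cells are known for high glycolysis under HIF-1α and mTOR, whereas Treg cells are known to rely more on mitochondrial oxidation. HIF is controlled largely at the protein level, which RNA does not measure.

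The HIF core can be seen in the start regions of the lactate dehydrogenase pair, shown because Ldha had the highest level per kb of all members and Ldhb was the only member whose groups did not overlap. The sequences are the RefSeq GRCm38.p6 windows from 250 bases before to 50 bases after the annotated start, 5′ to 3′ on the strand of the gene. Ldha lies on the plus strand at chr7:46845554-46845853 and Ldhb on the minus strand at chr6:142507908-142508207. Capitals mark ACGTG or GCGTG on either strand.
Ldha: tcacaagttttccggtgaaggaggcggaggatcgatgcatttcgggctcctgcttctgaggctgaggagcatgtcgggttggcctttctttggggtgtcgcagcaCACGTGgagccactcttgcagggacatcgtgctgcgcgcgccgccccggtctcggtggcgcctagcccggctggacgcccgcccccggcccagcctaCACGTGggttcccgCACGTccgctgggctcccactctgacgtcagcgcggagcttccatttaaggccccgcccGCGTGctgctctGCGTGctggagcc
Ldhb: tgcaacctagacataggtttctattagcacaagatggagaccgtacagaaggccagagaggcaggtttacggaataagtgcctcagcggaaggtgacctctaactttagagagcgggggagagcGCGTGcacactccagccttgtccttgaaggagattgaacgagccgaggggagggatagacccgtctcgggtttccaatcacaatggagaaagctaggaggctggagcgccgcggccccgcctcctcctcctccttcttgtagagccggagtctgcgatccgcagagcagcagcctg
This Ldha window held 7 cores, where CACGTG counts on both strands, and the Ldhb window held 1. The second annotated Ldha window held 2. Of the 35 members, 31 had a window in the table, and 29 of these (93.5%) held at least 1 core in some window, against 46.7% of all 27025 genes with a window and 52.3% of the 17492 protein-coding ones. Member windows had a median GC content of 63.0%, against 52.7% over all windows. The members without a core were Gpi1 and Tpi1. Slc2a3, Epas1, Bnip3l and Ndrg1 had no window in the table. A match to these letters is a description of the window and not a binding site.

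The sort was visible in Ccr6, which had 7309, 2750.1 and 6406 normalised counts in CCR6+ libraries, against 909, 851, 439 and 271 in CCR6- libraries (log2 difference 3.19, SE 0.56, adjusted p = 0.302, limma). Foxp3 was present in every library, at 33446 ± 19614 normalised counts in CCR6+ libraries and 31384 ± 8699 in CCR6- libraries (SD, n = 3 and 4). Library depth was 11607780 to 35182288 reads in CCR6+ libraries and 31083571 to 47261246 in CCR6- libraries. CCR6+ replicate 2, the shallowest, stood apart. Its summed values for 10 Treg identity genes were 71326, against 194991 and 241177 in the other CCR6+ libraries and 174148 to 183925 in CCR6- libraries. Its summed lung epithelial markers (14 genes) were 85263, against 3838 and 12072 in the other CCR6+ libraries and 1940.3 to 10371 in CCR6- libraries. Endothelial markers (10 genes) summed to 52007 in it, against 6222 and 9582 in the other CCR6+ libraries and 5453 to 7287 in CCR6- libraries, and stromal markers (10 genes) to 29801, against 590.2 and 2182 in the other CCR6+ libraries and 236 to 1786 in CCR6- libraries. No epithelial, endothelial or stromal marker was at 0 in it. Their part in the results below was not tested, and values are given with and without it for the results that moved most with it; the plot of log2 differences shows every member both ways. In sorted bulk samples, fewer cells of a type and less RNA per cell cannot be told apart.

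With all libraries, every member but Ldhb had values that overlapped between CCR6+ and CCR6- Treg cells. None of the 35 passed an adjusted p of 0.05 in limma, and the background was 0% of 14582 genes, so the count says nothing particular to these genes. The smallest adjusted p of any gene in limma was 0.0503. On the reads recovered from the deposited values, edgeR called 0 members, against 0.0137% of all genes. DESeq2 called 3 members, Ldhb, Epas1 and Vegfa (8.57%, against 5.03% of the genes with an adjusted p), and without CCR6+ replicate 2 it called 1, Ldhb (2.86%, against 1.37%). The log2 difference, CCR6+ minus CCR6-, was under 1 in size for 31 of 35 members, and 18 of 35 had a 95% interval that lay within 1 of 0 on both sides. It was positive for 13 members and negative for 22, with a median of -0.08, against 0.10 over all genes tested. At an unadjusted p under 0.05 only Ldhb stood out, 1 of 35, against 10.6% of all genes. The groups did not overlap for 1 member with CCR6+ lower, Ldhb (2.86% of members, against a background of 5.53% of genes), and for 0 members with CCR6+ higher (background 7.96%). Without CCR6+ replicate 2, Gapdh, Hif1a, Egln3 and Ddit4 did not overlap with CCR6+ higher (11.4% of members, background 10.9%), and Ldhb and Pfkm with CCR6+ lower (5.71% of members, background 9.43%). Without CCR6+ replicate 1, 3 members did not overlap with CCR6+ higher (8.57%, background 26.9%) and 7 with CCR6+ lower (20%, background 11.1%). The 7 were Slc2a1, Pfkl, Pgk1, Eno1, Ldhb, P4ha1 and Mxi1. Without CCR6+ replicate 3 it was 2 members in each direction (5.71%, background 13.3% higher and 9.15% lower). With 1 CCR6- library left out, 0 or 1 members did not overlap with CCR6+ higher (0% to 2.86%, background 9.26% to 11.2%). With CCR6+ lower it was 1 or 2 members (2.86% to 5.71%, background 7.22% to 8.95%). Ldhb, with CCR6+ lower, was the only member without overlap in every one of these comparisons. That follows from its lack of overlap with all libraries, since leaving out a library cannot create overlap.

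**Figure D1:**
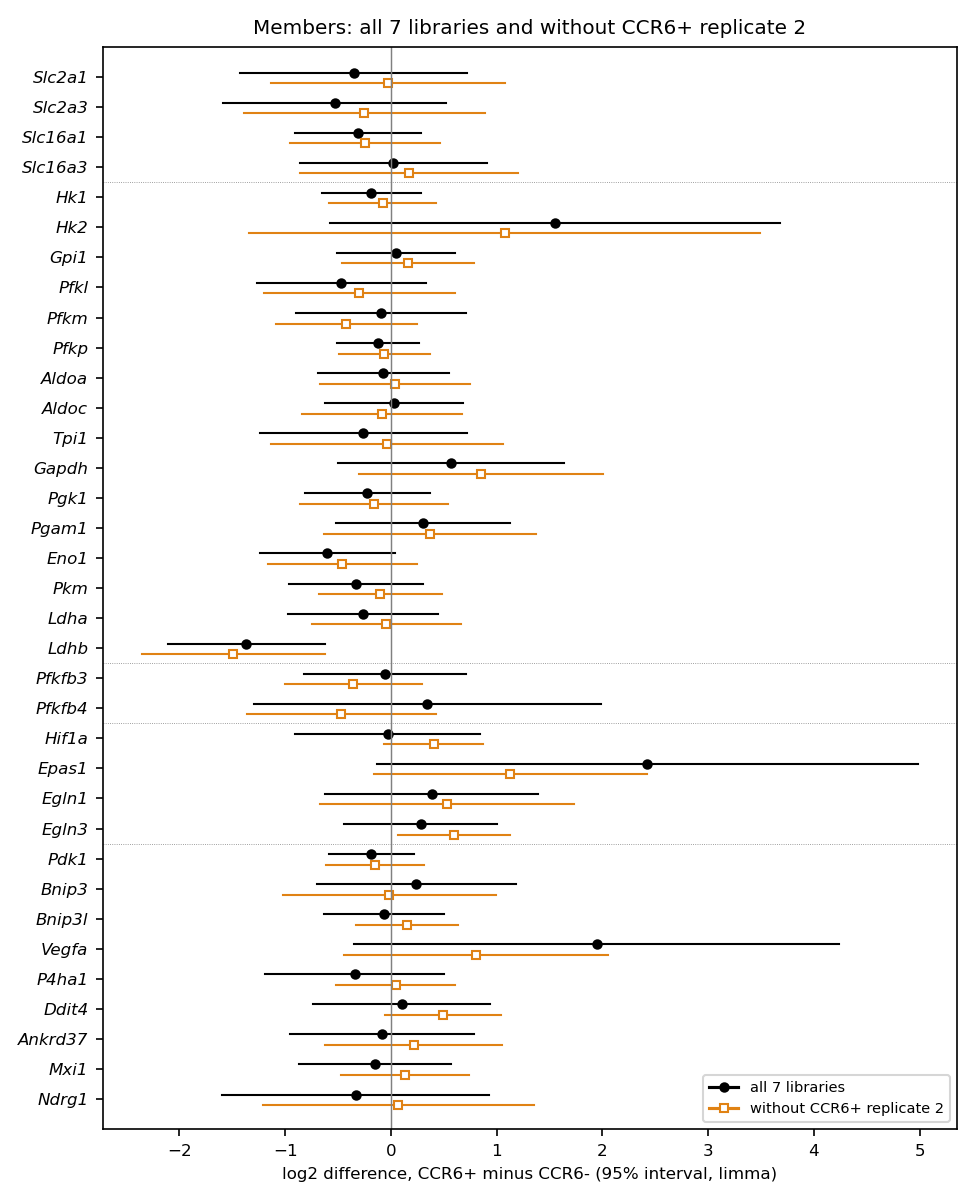
Log2 difference, CCR6+ minus CCR6-, of each of the 35 members on the log2(normalised count + 1) scale, with limma's 95% interval as a line; black points use all 7 libraries and orange squares leave out CCR6+ replicate 2. Only the interval of Ldhb (-2.11 to -0.62) lies clear of 0 with all 7 libraries, and Epas1, Vegfa and Hk2 have the widest intervals.

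The median log2 difference of the glycolytic enzymes lay slightly on the CCR6- side, as did that of T cell genes. Of 16 enzymes, 11 had a negative and 5 a positive log2 difference. Their median was -0.15, against 0.10 over all genes tested, and -0.07 without CCR6+ replicate 2, against 0.00. Pan T cell genes (9 tested) had a median of -0.34, and -0.0096 without CCR6+ replicate 2. The 10 Treg identity genes had -0.41, and 0.20 without it. All 16 together took 0.443%, 0.317% and 0.375% of the summed value of the CCR6+ libraries, against 0.417%, 0.496%, 0.377% and 0.406% of the CCR6- libraries, so that the groups overlapped, with CCR6+ replicate 2 lowest and CCR6- replicate 2 highest.

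Ldhb encodes the lactate dehydrogenase subunit that favours the return of lactate to pyruvate. It had 510.3, 626 and 458 normalised counts in CCR6+ libraries, against 1023, 1416, 1089.7 and 2169 in CCR6- libraries. Every CCR6+ library lay below every CCR6- library, and CCR6- replicate 4 was the highest. The log2 difference was -1.37 (SE 0.31, 95% interval -2.11 to -0.62), with an unadjusted p of 0.0038 and an adjusted p of 0.388 in limma, which misses the threshold. On the recovered reads the adjusted p was 0.249 in edgeR and 0.0026 in DESeq2. Across all 22 settings the log2 difference lay between -1.56 and -1.14 and the adjusted p between 0.0017 and 0.730. Ldhb lies on chromosome 6, 142490249 to 142507957 on the minus strand (mm10), and 27.0% of the 50-base windows of its longest coding transcript also occur in 1 pseudogene.

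Ldha encodes the subunit that favours lactate formation, and it did not follow Ldhb. It had 41374, 23163 and 32419.5 normalised counts in CCR6+ libraries, against 38590.3, 52139, 34751 and 28913 in CCR6- libraries. The groups overlapped over most of their range (log2 difference -0.26, SE 0.29, adjusted p = 0.671, limma, and -0.042 without CCR6+ replicate 2). Within a library, where scaling cancels, the log2 ratio of Ldha to Ldhb was 6.34, 5.21 and 6.14 in CCR6+ libraries, against 5.24, 5.20, 4.99 and 3.74 in CCR6- libraries. CCR6+ replicates 1 and 3 lay above every CCR6- library, while CCR6+ replicate 2 lay among CCR6- replicates 1 and 2, and CCR6- replicate 4 was lowest. Per kb of the longest coding transcript, Ldhb made up 1.69% to 3.62% of the pair in CCR6+ libraries and 3.56% to 9.46% in CCR6- libraries.

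**Figure D2:**
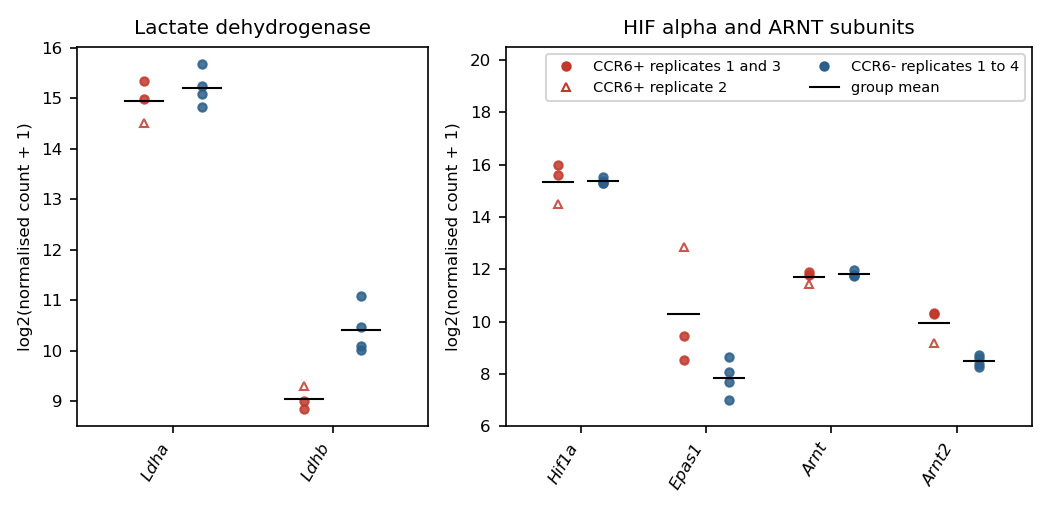
Log2(normalised count + 1) of the lactate dehydrogenase genes and of genes for HIF alpha and ARNT subunits, one point per library, with CCR6+ libraries left of CCR6- libraries and a black line at each group's mean; the open triangle is CCR6+ replicate 2. Ldhb (458 to 626 normalised counts in CCR6+ libraries, 1023 to 2169 in CCR6- libraries) and Arnt2 (587 to 1276 and 305 to 422) show no overlap, while Ldha, Hif1a, Epas1 and Arnt do.

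Among the entry steps, Hk1, the widely expressed hexokinase, had 9665, 7163 and 8249.5 normalised counts in CCR6+ libraries, against 9204, 7933, 9636 and 11218 in CCR6- libraries. Hk2, the inducible hexokinase, had 349, 639 and 161 in CCR6+ libraries, against 229.8, 206, 127 and 25.7 in CCR6- libraries. Hk2 was highest in CCR6+ replicate 2 and lowest in CCR6- replicate 4, and its log2 difference of 1.55 (SE 0.88, adjusted p = 0.519, limma) was 1.08 without CCR6+ replicate 2. Per kb, Hk1 held 93.5% to 98.5% of the Hk1 and Hk2 sum in CCR6+ libraries and 98.0% to 99.8% in CCR6- libraries. Gpi1, which interconverts glucose 6-phosphate and fructose 6-phosphate, had 6298 ± 1332 normalised counts in CCR6+ libraries and 6079 ± 1089 in CCR6- libraries (log2 difference 0.05, SE 0.23).

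The phosphofructokinase genes overlapped between the groups. Pfkp (platelet type) held 61.0% to 65.5% of the per-kb sum of the Pfkp, Pfkl and Pfkm levels in CCR6+ libraries and 51.6% to 62.6% in CCR6- libraries, and Pfkl (liver type) held 28.1% to 36.6% and 32.0% to 46.3%. Pfkl had 5522, 3289 and 3964 normalised counts in CCR6+ libraries, against 5451, 5122, 4224 and 9283 in CCR6- libraries. CCR6- replicate 4 alone stood above the rest, and the log2 difference was -0.47 (SE 0.33). Pfkm (muscle type) had 278, 582 and 314 in CCR6+ libraries, against 412, 329.8, 547 and 330.3 in CCR6- libraries. Its groups separated only when CCR6+ replicate 2, the highest of all 7, was left out.

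In the later steps, Pkm, the pyruvate kinase of most proliferating cells, had 33201, 18639 and 26749 normalised counts in CCR6+ libraries, against 29529, 32904, 26515 and 40406 in CCR6- libraries (log2 difference -0.33, SE 0.26, and -0.10 without CCR6+ replicate 2). Eno1, the enolase of most tissues, had 3509, 2282 and 2683 in CCR6+ libraries, against 3813, 4364, 3285 and 5808 in CCR6- libraries. Only CCR6+ replicate 1 reached into the CCR6- range. The log2 difference of Eno1 was -0.60 (SE 0.26, unadjusted p = 0.060, adjusted p = 0.478, limma), and -0.46 without CCR6+ replicate 2. Gapdh, which makes NADH as it oxidises glyceraldehyde 3-phosphate, had 832, 455 and 808 in CCR6+ libraries, against 736, 366, 609.7 and 257 in CCR6- libraries. Its log2 difference was 0.57 (SE 0.44, adjusted p = 0.584, limma), and 0.85 without CCR6+ replicate 2. Aldoa, the main aldolase gene here, had 11850.0 ± 2842 normalised counts in CCR6+ libraries and 12463 ± 2850.1 in CCR6- libraries, and held over 98% of the per-kb sum with Aldoc in every library. The log2 differences of the remaining enzymes were -0.26 for Tpi1 (triose phosphate isomerase), 0.03 for Aldoc, -0.22 for Pgk1 (phosphoglycerate kinase) and 0.31 for Pgam1 (phosphoglycerate mutase), each with a 95% interval that included 0.

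**Figure D3:**
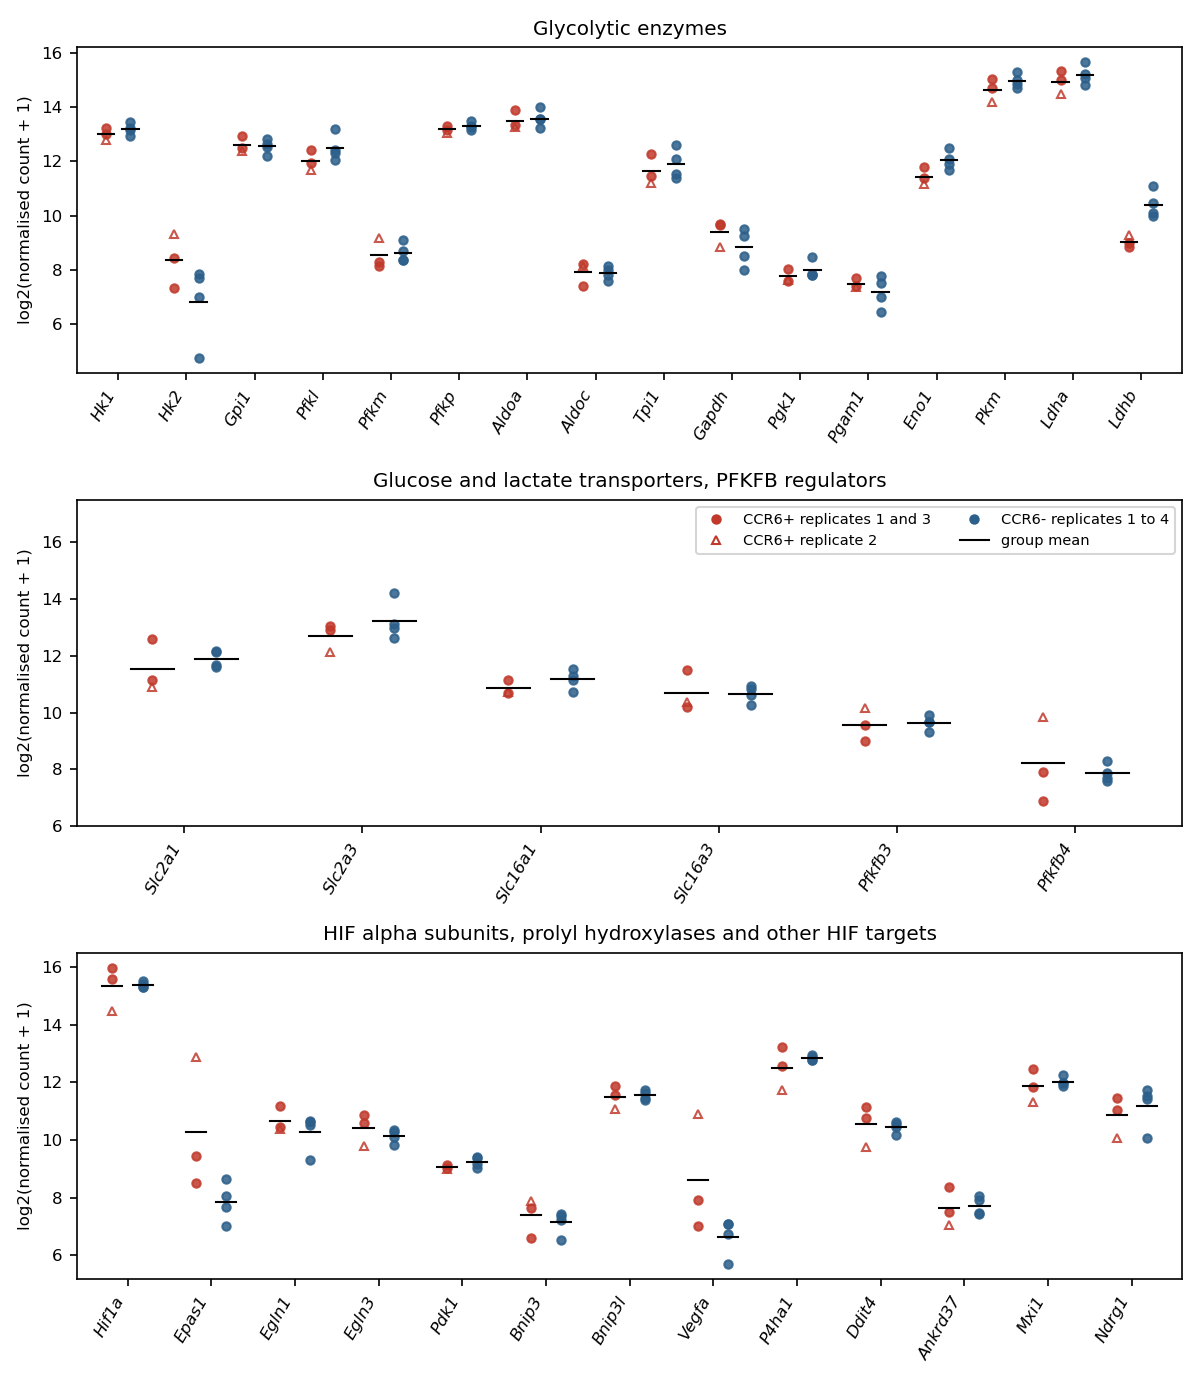
Log2(normalised count + 1) of the 35 members in each library, with the 3 CCR6+ libraries left of the 4 CCR6- libraries for each gene and a black line at each group's mean; the open triangle is CCR6+ replicate 2. Ldhb is the only member whose groups do not overlap, and the triangle is the lowest point for 18 of 35 members and the highest for 7.

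Levels differed widely between enzymes of the pathway, and so did the sequence they share with other genes. Per kb of the longest coding transcript, Ldha averaged 17807 normalised counts in CCR6+ libraries and 21266 in CCR6- libraries, Pkm 10772 and 13297, and Aldoa 7650.1 and 8046. Gapdh averaged 492 per kb in CCR6+ libraries and 347 in CCR6- libraries, Pgk1 119.7 and 142, and Pgam1 101 and 86.3. Of the 50-base windows of the longest coding transcript, 82.5% for Gapdh, 72.2% for Eno1, 68.0% for Pgk1 and 41.5% for Pgam1 also occur in transcripts of other genes, and 215 of the 222 other genes for Gapdh are pseudogenes. Bnip3 was the other member above 40%, with 62.4%. A further 13 members shared no window, and some of these were as low, with Hk2 at 69.5 per kb in CCR6+ libraries and 26.7 in CCR6- libraries, Aldoc at 89.9 and 86.1, and Pfkm at 136 and 141. Reads from shared windows can be discarded or assigned to a copy in counting, so levels of these 5 genes, and differences between them and other genes, are uncertain; the part of sharing in their levels was not tested. For Gpi1, Pfkm, Pkm, Bnip3 and Ankrd37, over 10% of exonic bases also lie in exons of another gene, and without a stated use of strand such reads cannot be told apart.

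**Figure D4:**
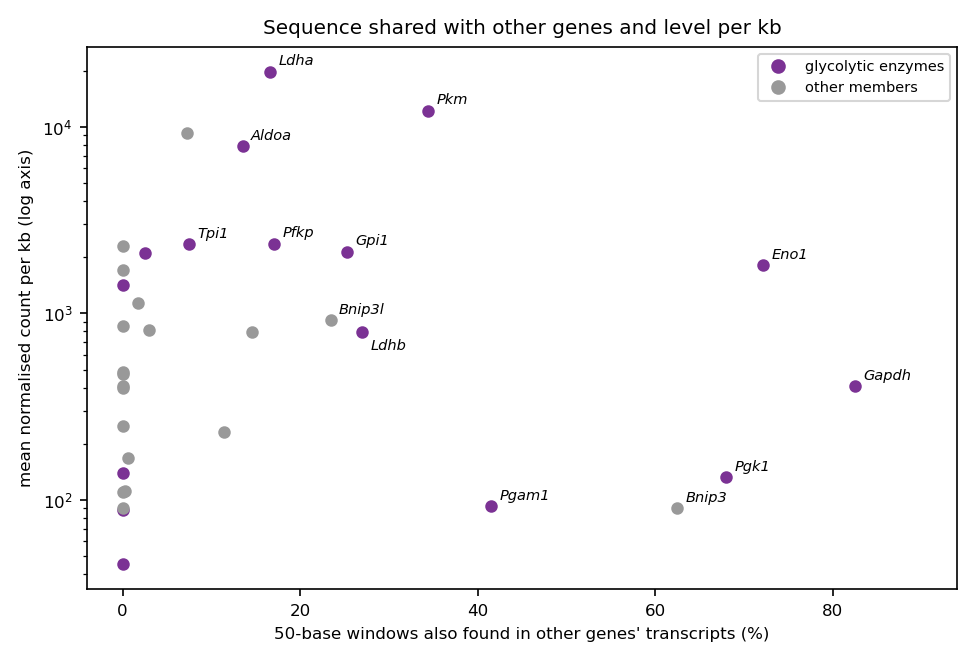
Mean normalised count per kb of the longest coding transcript over all 7 libraries (log axis) against the percentage of its 50-base windows that also occur in transcripts of other genes, one point per member, with glycolytic enzymes in purple. Gapdh, Pgk1, Pgam1 and Bnip3 combine over 40% of shared windows with a lower level than Eno1, which has 72.2% shared, and low levels also occur among members with no shared window.

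With all 7 libraries, each transporter gene overlapped between the groups. Without CCR6+ replicate 1, Slc2a1 no longer did, with CCR6+ lower. Slc2a1, the glucose transporter of most tissues, had 6205, 1906 and 2281 normalised counts in CCR6+ libraries, against 4647, 4493, 3303 and 3117 in CCR6- libraries. CCR6+ replicate 1 was the highest of all 7 and the other CCR6+ libraries were the lowest. Slc2a3, the high-affinity glucose transporter, had 8544, 4559 and 7802 in CCR6+ libraries, against 8907, 6412, 8163 and 19064 in CCR6- libraries, with CCR6- replicate 4 far above the rest. The log2 differences were -0.35 (SE 0.44) for Slc2a1 and -0.53 (SE 0.44) for Slc2a3, and -0.025 and -0.25 without CCR6+ replicate 2. Of the lactate transporters, Slc16a1, which carries lactate in either direction, had 1884 ± 355 normalised counts in CCR6+ libraries and 2355 ± 516 in CCR6- libraries. Slc16a3, known for lactate export, had 1798 ± 944 and 1654 ± 329. Their log2 differences were -0.31 (SE 0.25) and 0.02 (SE 0.37).

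The PFKFB regulators separated by library rather than by group. Pfkfb4 had 118, 912 and 238 normalised counts in CCR6+ libraries, against 311, 189.8, 234 and 208 in CCR6- libraries. Pfkfb3 had 506, 1160.1 and 760.3 in CCR6+ libraries, against 960.0, 636, 806 and 806 in CCR6- libraries. For both, CCR6+ replicate 2 was the highest and CCR6+ replicate 1 the lowest of all 7 libraries, and the log2 difference of Pfkfb4 was 0.35 (SE 0.68) with all libraries and -0.47 without CCR6+ replicate 2.

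Hif1a, the alpha subunit found in most cells, was among the most abundant members. It had 64225, 22869.9 and 49331 normalised counts in CCR6+ libraries, against 46902, 42864, 40000.2 and 40827 in CCR6- libraries. The CCR6- libraries lay close together, CCR6+ replicates 1 and 3 lay above all of them, and CCR6+ replicate 2 lay below. The log2 difference was -0.03 (SE 0.36, 95% interval -0.91 to 0.85, adjusted p = 0.971, limma), and 0.40 without CCR6+ replicate 2 (adjusted p = 0.708, limma). Foxp3 followed the same order of libraries in the CCR6+ group, with 50875, 12206 and 37258 normalised counts.

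Epas1 encodes the alpha subunit known from endothelium and lung epithelium. It had 365, 7493 and 697 normalised counts in CCR6+ libraries, against 267, 399, 204 and 129 in CCR6- libraries. CCR6+ replicate 2 lay far above every other library, CCR6+ replicate 3 was next, and CCR6+ replicate 1 lay inside the CCR6- range. The log2 difference was 2.43 (SE 1.06, 95% interval -0.13 to 4.99, adjusted p = 0.478, limma), and 1.13 without CCR6+ replicate 2 (adjusted p = 0.704, limma). DESeq2 on the recovered reads called it with all libraries (adjusted p = 0.0047) and not without CCR6+ replicate 2, and the largest adjusted p of any setting was 0.751. Per kb, Hif1a held 99.5%, 78.1% and 98.8% of the sum of both alpha subunit genes in CCR6+ libraries, against 99.2% to 99.7% in CCR6- libraries.

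**Figure D5:**
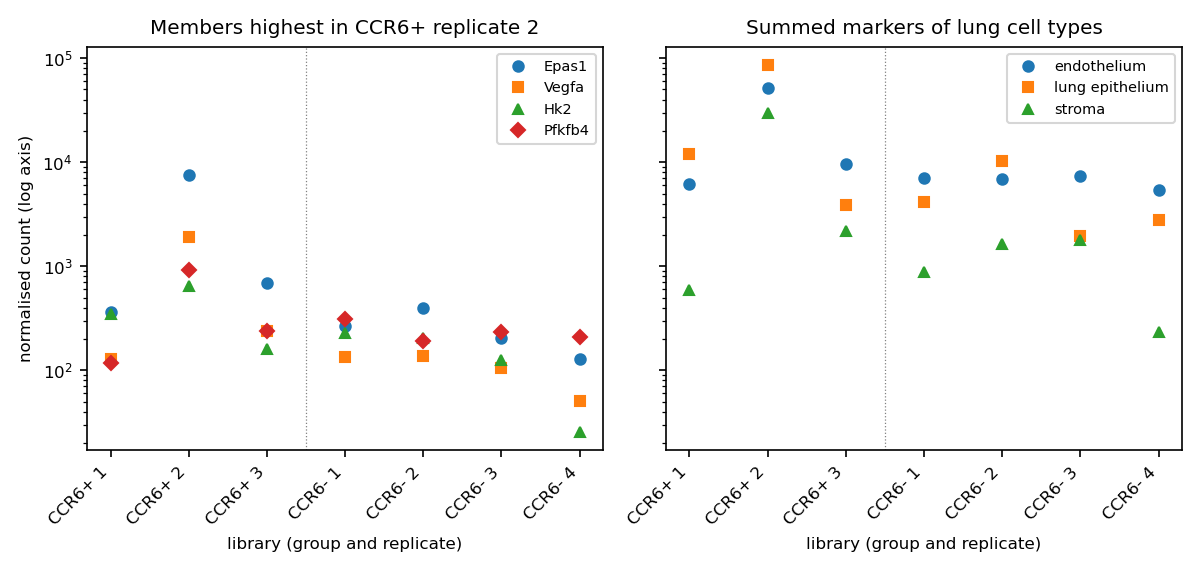
Normalised counts (log axis) of Epas1, Vegfa, Hk2 and Pfkfb4 in each library (left panel) and summed normalised counts of the endothelial, lung epithelial and stromal markers (right panel), with CCR6+ libraries left of the dotted line and CCR6- libraries right of it. The 4 genes are from the 7 of 35 members highest in CCR6+ replicate 2 and are shown for that reason, while 18 of 35 members were lowest in it. All 3 sums were also highest in that library, with 7493 for Epas1 and 52007 for the endothelial markers.

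The prolyl hydroxylase genes had positive log2 differences that did not pass the test. Egln1, the main oxygen sensor of the family, had 2328, 1319 and 1380.5 normalised counts in CCR6+ libraries, against 1573, 1617, 1472 and 630.1 in CCR6- libraries. CCR6+ replicate 1 was the highest and CCR6- replicate 4 the lowest (log2 difference 0.38, SE 0.42). Egln3, itself a HIF target, had 1842, 878 and 1553 in CCR6+ libraries, against 913, 1229.7, 1085 and 1287 in CCR6- libraries. CCR6+ replicates 1 and 3 lay above all CCR6- libraries and CCR6+ replicate 2 below them. Its log2 difference was 0.28 (SE 0.30, adjusted p = 0.660, limma), and 0.60 without CCR6+ replicate 2 (adjusted p = 0.616, limma).

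The 9 other HIF targets had a median log2 difference of -0.08, with 3 positive and 6 negative. Without CCR6+ replicate 2 the median was 0.13, with 7 positive and 2 negative, against 0.00 over all genes tested. CCR6+ replicate 2 was the lowest library for 7 of the 9, and CCR6+ replicate 1 the highest for 5. The share of summed library value in these 9 genes was 0.083%, 0.048% and 0.063% in CCR6+ libraries, against 0.073%, 0.070%, 0.064% and 0.055% in CCR6- libraries.

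Vegfa, which encodes the angiogenic growth factor, had 128, 1890.3 and 239 normalised counts in CCR6+ libraries, against 134, 136, 106 and 50.8 in CCR6- libraries. CCR6+ replicate 2 was far above the rest, and CCR6+ replicate 1 lay inside the CCR6- range. The log2 difference was 1.95 (SE 0.95, adjusted p = 0.491, limma), and 0.81 without CCR6+ replicate 2 (adjusted p = 0.773, limma). Ddit4, an inhibitor of mTORC1, had 2246, 873 and 1729 in CCR6+ libraries, against 1585, 1404, 1142 and 1515 in CCR6- libraries. P4ha1, a collagen prolyl hydroxylase subunit, had 9444, 3367 and 6029.6 in CCR6+ libraries, against 7443, 7831, 6995 and 7014 in CCR6- libraries. Both were highest in CCR6+ replicate 1 and lowest in CCR6+ replicate 2, with log2 differences of 0.10 (SE 0.35) and -0.34 (SE 0.35). Without CCR6+ replicate 2 these were 0.49, where every CCR6+ library lay above every CCR6- library, and 0.045, where the groups overlapped.

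Pdk1, a kinase that shuts off pyruvate dehydrogenase and with it the oxidation of pyruvate in mitochondria, had the smallest SE among the HIF targets. It had 518, 507 and 566 normalised counts in CCR6+ libraries, against 658, 671, 573 and 519 in CCR6- libraries (log2 difference -0.18, SE 0.16, 95% interval -0.58 to 0.21). The mitophagy receptor gene Bnip3l had 2957 ± 793 in CCR6+ libraries and 3027 ± 339 in CCR6- libraries, and its relative Bnip3 had 178 ± 72.7 and 145 ± 36.3. Mxi1, a MYC antagonist, had 3952 ± 1593 and 4177 ± 509. Ndrg1, a stress response gene, had 2806, 1060.0 and 2127 in CCR6+ libraries, against 3376, 2962, 2737 and 1071 in CCR6- libraries, with 1 low library in each group. Ankrd37, an ankyrin repeat gene induced by HIF, had 329.9, 132 and 182 in CCR6+ libraries, against 243, 268, 170.1 and 177 in CCR6- libraries. The log2 differences of Bnip3l, Bnip3, Mxi1, Ndrg1 and Ankrd37 lay between -0.33 and 0.24, and between -0.015 and 0.22 without CCR6+ replicate 2.

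The members as a whole were ordered by library more than by group. CCR6+ replicate 2 was the lowest of all 7 libraries for 18 of 35 members (51.4%), against 22.8% of all genes tested, and it was the highest for 7 (20%), against 43.6% of all genes. CCR6+ replicate 1 was the highest for 12 members (34.3%), against 8.58% of all genes. No test was made of these shares, since members share their libraries.

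The wider pathways were read from lists of genes that are not members. Of 35 other genes of glycolysis and its branches, 32 were tested, with 16 positive and 16 negative log2 differences, none called in limma and 3 (9.38%) at an unadjusted p under 0.05, against 10.6% of all genes. The groups did not overlap for 2 with CCR6+ higher, Slc2a6 and Slc16a7 (6.25%, background 7.96%), and for 3 with CCR6+ lower, Mpc1, Pdhb and Dlat (9.38%, background 5.53%). Mpc1, a subunit of the mitochondrial pyruvate carrier, had 45.5, 27.3 and 35.5 normalised counts in CCR6+ libraries, against 48.2, 53.9, 59.8 and 52.8 in CCR6- libraries (log2 difference -0.58, SE 0.21, adjusted p = 0.458, limma). Slc2a6, a hexose transporter gene, had 225, 491 and 196 in CCR6+ libraries, against 139, 149, 79.1 and 134 in CCR6- libraries (log2 difference 1.19, and 0.78 without CCR6+ replicate 2). Slc16a7, a monocarboxylate transporter gene, had 62.7, 396 and 59.9 in CCR6+ libraries, against 21.8, 15.7, 22.1 and 0 in CCR6- libraries. Hk3, a hexokinase gene known from myeloid cells, had 168, 639 and 66.0, against 80.4, 0, 12.9 and 32.5, so its groups overlapped. Both were highest in CCR6+ replicate 2 and at 0 in a CCR6- library, which widens a log2 difference. Their log2 differences were 3.58 and 3.79, with SEs of 1.34 and 1.61. Without CCR6+ replicate 2 the log2 differences were 2.69 and 2.93, with unadjusted p of 0.108 and 0.155 in limma. Summed macrophage and monocyte markers (13 genes) were 41373 to 144223 in CCR6+ libraries and 19451 to 58622 in CCR6- libraries, highest in CCR6+ replicate 2, and their part was not tested.

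Of 16 other genes of HIF regulation, 14 were found and tested, with 5 positive and 9 negative log2 differences, none called in limma and 1, Arnt2, at an unadjusted p under 0.05 (7.14%, against 10.6% of all genes). Arnt2, a dimer partner of HIF alpha known mainly from neurons, had 1261, 587 and 1276 normalised counts in CCR6+ libraries, against 388, 305, 422 and 329.6 in CCR6- libraries. Every CCR6+ library lay above every CCR6- library, and the lowest CCR6+ value was that of replicate 2. The log2 difference was 1.45 (SE 0.33, adjusted p = 0.388, limma), and 1.82 without CCR6+ replicate 2 (SE 0.20, adjusted p = 0.194, limma). The adjusted p in DESeq2 on the recovered reads was 0.0026, and over all settings the log2 difference lay between 1.07 and 1.83 and the largest adjusted p was 0.736. Arnt, the usual partner, had 3387 ± 530.2 normalised counts in CCR6+ libraries and 3625 ± 279 in CCR6- libraries (log2 difference -0.11, SE 0.17). The HIF coactivator gene Ep300 had 4036, 4081 and 4209.5 in CCR6+ libraries, against 3956, 2823, 3984 and 2409 in CCR6- libraries (log2 difference 0.35, SE 0.23), the other case of no overlap in this list (2 of 14, or 14.3%, with CCR6+ higher). Cited2, which competes with HIF for that coactivator, and Rbx1, a ubiquitin ligase subunit, had log2 differences of -0.31 (SE 0.20) and -0.29 (SE 0.23).

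Of 36 other hypoxia targets, all were tested, with 22 positive and 14 negative log2 differences, none called in limma and 6 (16.7%, against 10.6% of all genes) at an unadjusted p under 0.05, all positive. The groups did not overlap for 8 with CCR6+ higher (22.2%, background 7.96%) and 0 with CCR6+ lower (background 5.53%), and 7 of the 8 were highest in CCR6+ replicate 2. Without it these counts were 10 of 35 higher (28.6%, background 10.9%) and 1 lower (2.86%, background 9.43%). Most markers of dendritic cells (7 of 8 tested) and of macrophages and monocytes lay on the same side. So did 7 of 8 tested markers of eosinophils, neutrophils and mast cells. All tested markers of lung epithelium (14), endothelium (10), stroma (9) and B cells (9) were also positive. Erythroid markers were mixed, with 3 positive and 2 negative log2 differences. Summed dendritic cell markers (9 genes) were 1389 to 9802 in CCR6+ libraries and 569 to 994 in CCR6- libraries, without overlap, and all 12 macrophage and monocyte markers tested had a positive log2 difference also without CCR6+ replicate 2. Without that library, positive log2 differences were also found for 9 of 9 B cell, 11 of 14 epithelial, 9 of 10 endothelial and 6 of 9 stromal markers. The part of any of these cell types in this list was not tested. Bhlhe40, a transcription factor gene that T cells also induce on activation, had 10938, 11142 and 8755 normalised counts in CCR6+ libraries, against 6481, 6222, 6752 and 6728 in CCR6- libraries. The log2 difference was 0.64 (SE 0.16, adjusted p = 0.415, limma), 0.58 without CCR6+ replicate 2, with an adjusted p of 0.0002 in DESeq2 on the recovered reads, the smallest of all settings, and of 0.749 at most. Hmox1 (heme oxygenase) had 417, 641 and 336 in CCR6+ libraries, against 136, 333, 183 and 156 in CCR6- libraries (log2 difference 1.23, and 0.98 without CCR6+ replicate 2). Slc6a8 (creatine transporter) had 58.4, 70.5 and 79.2 in CCR6+ libraries, against 25.5, 5.8, 12 and 31.8 in CCR6- libraries (log2 difference 2.07, SE 0.57). Adm (adrenomedullin) had 68.7, 337 and 62.9 in CCR6+ libraries, against 35, 27.3, 33.1 and 16.2 in CCR6- libraries (log2 difference 2.04, and 1.26 without CCR6+ replicate 2). None of these 4 passed the test in limma.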

How the data were processed

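RNA-seq was made from 7 sorted Treg libraries, 3 CCR6+ and 4 CCR6-, with a SMART-Seq v4 kit and KAPA library preparation, per the labels' protocols. The authors deposited 1 signal value per symbol and library. The values are whole multiples of one step per library, within 0.001 reads for 100% of values, so they were read as counts scaled by 1 factor per library. STAR 2.5.1b, HTSeq 0.6.1p1, DESeq2 1.6.3 and mm10 are listed with no role or order, per the submitters' processing notes. Which annotation was counted, and whether by strand, is not given in the sources used here. One read was worth 2.27 units in CCR6+ replicate 2 and 0.677 to 1.02 in the other libraries, and 2.16% to 29.7% of genes were at 0.

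The 14582 genes at 10 or more normalised counts in 3 or more libraries were tested with limma 3.58.1 (R 4.3.3) on log2(value + 1), two-sided and without covariates, and p-values were adjusted by Benjamini-Hochberg over all of them, with a threshold of 0.05. On this scale the log2 difference of a low gene can lie above or below that of tests on reads. Hk3, at 0 in CCR6- replicate 2, had 3.79 in limma, against 3.07 in edgeR and 3.19 in DESeq2 on the recovered reads. Adm had 2.04, against 2.35 and 2.46. The alternatives included tests on the recovered reads, where edgeR 4.0.16 called 2 genes and DESeq2 1.42.0 called 679. Levels per kb use the longest coding transcript of GENCODE release 21, and shared sequence was counted in 50-base windows of it over all its transcripts.

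Named were Ccr6, Foxp3, all members and, of each pathway list, the 4 tested genes of smallest p. Arnt, Pdhb and Dlat were named after their values were seen. Of each marker list the 2 genes of highest mean are given within the sum of their list. The members and lists were chosen with earlier results of these data known.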

Additional observations from a re-analysis of the deposited data

Results flagged for a closer look

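Of 73 sets of 4 CCR6- values, 5 held 1 library far from the other 3. This share is near the 5% of sets flagged by chance, so the 5 sets are given for their values only. Pgk1 had 358 normalised counts in CCR6- replicate 2, against 221 to 229 in the other CCR6- libraries. Egln1 had 630.1 in CCR6- replicate 4, against 1472 to 1617 in the others. Slc2a6 had 79.1 in CCR6- replicate 3, against 134 to 149 in the others. Slc16a7 had 0 in CCR6- replicate 4, against 15.7 to 22.1 in the others. The log2 ratio of Ldha to Ldhb was 3.74 in CCR6- replicate 4, against 4.99 to 5.24 in the others. The 3 CCR6+ libraries are too few for this comparison.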

How the results depend on the processing

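The groups hold 3 and 4 libraries, and CCR6+ replicate 2 is the shallowest and stands apart, which limits every value. Over 21 alternatives, 16 of 35 members kept 1 sign (5 positive, 11 negative) and 19 did not. These are not 21 separate checks of sign. The changes of filter and limma-trend leave the log2 difference of a gene as it was. The replicate block repeats the log2 differences of the fit without CCR6- replicate 4. Genes called over the whole table were 0 in limma, 1 with a pseudocount of 0.5, 2 with a pseudocount of 8, 2 with a mean of at least 100, 1 with TMM scaling, 4 with quantile normalization, 10 with limma-trend, 2486 with arrayWeights, 2 in edgeR (2 without CCR6+ replicate 2) and 679 in DESeq2 (181 without it); with 1 library left out it was 0 each time. With arrayWeights 5 of 35 members were called (Slc16a1, Eno1, Ldhb, Epas1 and Egln3), beside 2486 of all 14582 genes. DESeq2 called 3 members (Ldhb, Epas1 and Vegfa, 8.57%, against 5.03% of genes). Without CCR6+ replicate 2 it called 1 (Ldhb, 2.86%, against 1.37%). The cause was not tested. Members whose groups do not overlap numbered 1 to 10 with 1 library left out, an alternative chosen after seeing the data. The 10 came without CCR6+ replicate 1, with 3 higher (8.57%, background 26.9%) and 7 lower (20%, background 11.1%). The median of the other HIF targets was 0.15 in edgeR and 0.17 in DESeq2 without CCR6+ replicate 2. Scaling moved the median log2 difference of all genes, 0.10 in the report, to 0.01 with TMM, 0.18 with equal totals and -0.08 with quantiles, so small differences are relative to it. With no filter on low values, over 19636 genes, it was 0.43. Members with a positive difference were 10 of 35 with TMM and 18 of 35 with equal totals, against 13.

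The labels do not say whether replicate numbers pair the libraries. Deviations of same-numbered libraries correlated at -0.13, -0.11 and 0.34, and those of other pairs at -0.76 to 0.69. With so few libraries these values cannot settle the pairing. With the replicate block 0 genes and 0 members were called, and Gpi1 turned to -0.073. CCR6- replicate 4 has no same-numbered CCR6+ library, so it does not enter the blocked difference. The blocked log2 differences are those of the fit without CCR6- replicate 4, where Gpi1 was also -0.073.

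Log2 differences that changed sign were, with TMM, Slc16a3 -0.067, Gpi1 -0.039 and Aldoc -0.058; with equal totals, Aldoa 0.015, Pfkfb3 0.032, Hif1a 0.057, Bnip3l 0.023 and Ankrd37 0.0064; with quantiles, Foxp3 0.10, Pfkp 0.037, Aldoa 0.10, Aldoc -0.83, Pgam1 -1.01, Hif1a 0.16, Bnip3 -0.96, Bnip3l 0.016 and Ddit4 -0.00148; with arrayWeights, Foxp3 0.063, Slc16a3 -0.43, Gpi1 -0.089, Pfkfb4 -0.11, Hif1a 0.19, Egln1 -0.068, Bnip3 -0.38 and Bnip3l 0.086. In edgeR they were Foxp3 0.048, Gpi1 -0.017, Aldoc -0.031 and Hif1a 0.039, and in DESeq2 Foxp3 0.089, Hif1a 0.088 and Ankrd37 0.000937. In edgeR without CCR6+ replicate 2 they were Foxp3 0.49, Slc2a1 0.13, Aldoa 0.035, Aldoc -0.046, Pfkfb4 -0.42, Hif1a 0.41, Bnip3l 0.15, P4ha1 0.078, Ankrd37 0.25 and Mxi1 0.16, and in DESeq2 without it 0.50, 0.14, 0.054, -0.026, -0.40, 0.43, 0.17, 0.10, 0.27 and 0.18 for the same genes. With 1 library left out, signs changed within the ranges -0.51 to 0.52 for Foxp3, -0.38 to 0.27 for Slc16a3, -0.12 to 0.17 for Gpi1, -0.42 to 0.11 for Pfkm, -0.26 to 0.069 for Aldoa, -0.12 to 0.30 for Aldoc, -0.35 to 0.24 for Pfkfb3, -0.47 to 1.00 for Pfkfb4, -0.34 to 0.40 for Hif1a, -0.015 to 0.63 for Bnip3, -0.25 to 0.15 for Bnip3l, -0.70 to 0.045 for P4ha1, -0.19 to 0.49 for Ddit4, -0.44 to 0.22 for Ankrd37, -0.45 to 0.13 for Mxi1 and -0.70 to 0.070 for Ndrg1.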
